A study of Mus musculus with 8 samples.

Results

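The collagen chain genes are those whose symbol is Col, a number, the letter a and a number, which the features list of the series gives for 44 of its 31053 genes. They were read in droplet single-cell RNA sequencing of CD45+ cells, that is cells carrying the leukocyte surface protein encoded by Ptprc, taken by magnetic sorting from normal mouse brain (the control group, 4 samples) or from the tumour of glioma-bearing mice (the glioma group, 4 samples). The labels give no strain, age, glioma line or agent for either group. The deposited counts form 1 pooled matrix per group without a map from cells to samples, so each group is 1 library without a replicate and no difference was tested. All intervals are exact 95% intervals for counting error in these libraries and hold nothing of the spread between mice.

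Collagens are extracellular proteins built from chains that wind into helical trimers. Fibrillar collagens (types I, III, V, XI and XXVII among them) form or regulate fibrils, type IV forms the network of basement membranes, type VI forms beaded filaments, and types XV and XVIII carry sugar chains and sit at basement membranes. In the healthy brain most collagen lies in the basement membranes of vessels and in the meninges, and is known as a product of endothelial cells, pericytes and fibroblasts.

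A unique molecular identifier (UMI) counts 1 captured RNA molecule near the end of its transcript. Barcodes with at least 1000 UMIs and at most 10% mitochondrial UMIs were put in 1 of 17 classes by UMIs of marker genes, none of them a collagen gene. In the control library 13680 barcodes passed, 12963 of them in a class, and in the glioma library 11049 passed, 8230 of them in a class, with medians of 6842 and 11332 UMIs. Barcodes whose leading class was less than 2 times the next were set aside as ambiguous (256 and 1693). These held 785 control and 2229 glioma collagen UMIs, the latter 32.7% of the glioma library's collagen UMIs. The glioma ones were led by Col3a1 (619 UMIs), Col4a1 (317) and Col1a1 (193). The libraries shared 41 passing barcodes, none of them in the keratin and Rhox5 class or the glioma microglia class. A level is given as CPM, the UMIs of a gene per 1000000 UMIs of the class.

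Of the 44 genes, 26 had at least 20 UMIs in some class and were measured. The other 18 were below that in every class and are not described as expressed or absent: Col2a1, Col4a3, Col4a6, Col5a2, Col6a4, Col8a1, Col9a1, Col10a1, Col11a1, Col12a1, Col13a1, Col17a1, Col19a1, Col20a1, Col22a1, Col24a1, Col26a1 and Col28a1. Col9a1 and Col19a1 had 0 UMIs in all passing barcodes. At the threshold, Col4a4 entered with 20 UMIs in control microglia, while Col5a2, with 14 UMIs in its highest classes, did not.

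Among classes with at least 50 cells, the collagen level was highest in 3, each with its own leading genes. Control microglia, the resident macrophages of the brain, carried 192 CPM of collagen RNA over 12546 cells, and Col27a1 alone made up 83.0% of it. Control endothelium, the cells lining vessels, carried 897 CPM over 120 cells, led by the type IV genes Col4a1 and Col4a2. A class of 67 glioma cells gated by Krt8, Krt18, Krt19 and Rhox5 carried 800 CPM, led by Col3a1. Glioma macrophages (6539 cells), neutrophils (313), dendritic cells (256) and T or NK cells (990) lay far below, at 15.8, 12.5, 11.1 and 6.10 CPM. In UMIs rather than level, the many glioma macrophages held 1470, against 1163 in control endothelium. They made up 21.5% of the glioma library's collagen UMIs, and the 67 keratin and Rhox5 cells 36.9%. The 61 border-associated macrophages of the control library, which live along brain borders and vessels, held 5 collagen UMIs in all, 9.70 CPM.

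**Figure D1:**
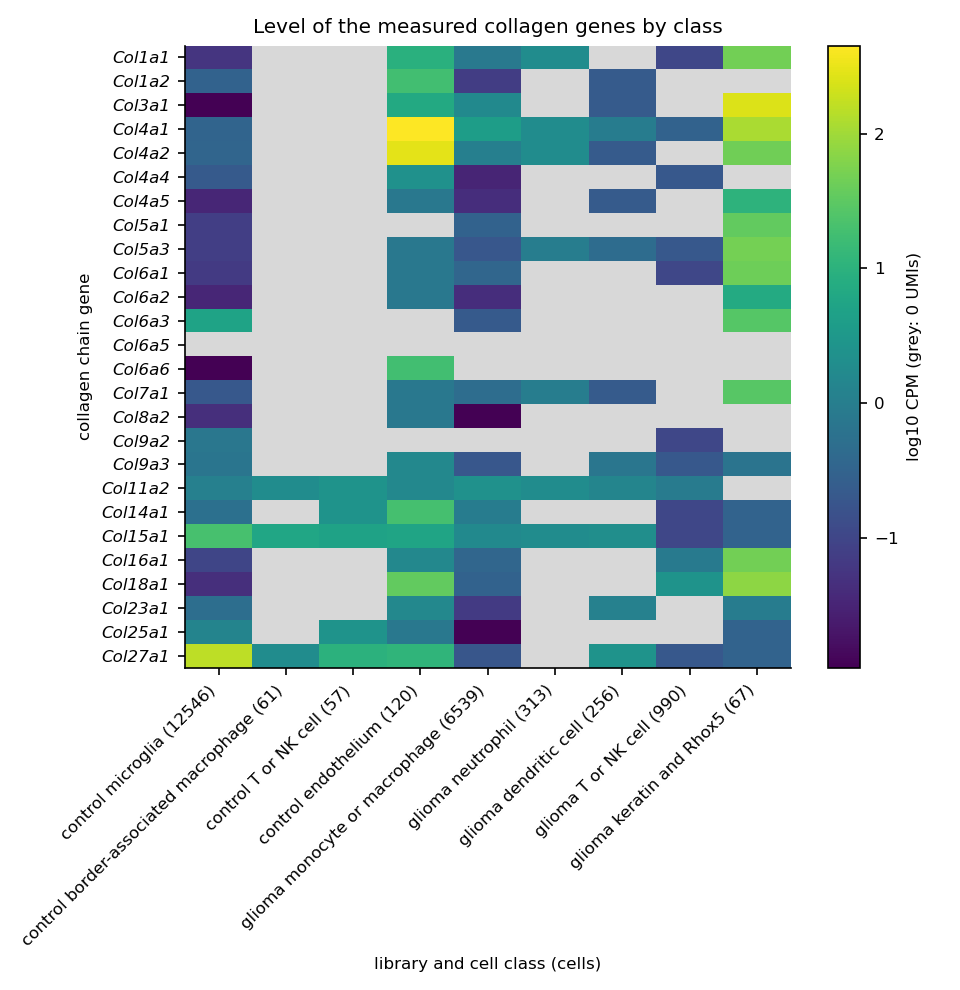
Level of the 26 measured collagen genes (rows) in each class with at least 50 cells (columns, with the number of cells), as log10 CPM on the colour scale and grey for 0 UMIs. Col27a1 is brightest in control microglia (159.5 CPM), Col4a1 and Col4a2 in control endothelium (451.4 and 294.8 CPM), and Col3a1 in the glioma keratin and Rhox5 cells (262.8 CPM).

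Control microglia were led by Col27a1, a fibrillar collagen gene known from cartilage. The gene lies on chromosome 4 from 63214004 to 63334991 of GRCm38 (mm10), plus strand, and its annotated span holds the microRNA gene Mir455 on the same strand. The class held 14305 UMIs of Col27a1, a level of 159.5 CPM (156.9 to 162.1), in 7503 of its 12546 cells. No cell held more than 17 of these UMIs, so the level does not rest on a few cells. Its promoter window (from 250 bases before the start annotated in RefSeq to 50 after it, chr4:63215162-63215461, plus strand, GRCm38.p6) is shown because no other collagen gene had as many UMIs. This window lies inside the span given above, which is from GENCODE and has another start. Here and in the windows printed further on, capitals mark the motif CCAAT or its reverse complement ATTGG, the GC box motif GGGCGG or its reverse complement CCGCCC, and the motif TATAAA or its reverse complement TTTATA. The letters were searched on both strands and overlapping matches were each counted.
Col27a1: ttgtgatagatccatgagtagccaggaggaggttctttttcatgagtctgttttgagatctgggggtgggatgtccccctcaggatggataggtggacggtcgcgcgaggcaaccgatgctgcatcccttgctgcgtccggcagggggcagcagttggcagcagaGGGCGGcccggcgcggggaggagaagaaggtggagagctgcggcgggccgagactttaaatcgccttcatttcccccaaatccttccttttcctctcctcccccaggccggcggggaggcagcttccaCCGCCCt
The window held 2 GC boxes (GGGCGG on either strand), a motif found in 35.7% of 32851 RefSeq windows of this length, and no CCAAT or TATAAA. It held 18 CpG dinucleotides against a median of 7 over all windows.

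When each cell was thinned to 2000 UMIs, leaving out 1143 shallower microglia, 27.4% of 11403 microglia held a Col27a1 UMI (26.6 to 28.3%), against 59.8% before thinning. The same share in control T or NK cells, taken as the background from free RNA, was 3.64% (2 of 55 cells, 0.44 to 12.5%). The median depths of microglia and of T or NK cells were 6874 and 5391 UMIs. Control classes too small for a level held Col27a1 UMIs as well. These were 15 of 354952 UMIs in 47 neutrophils, 10 of 645682 in 47 monocytes or macrophages and 10 of 155759 in 9 dendritic cells. In the RNA of control barcodes with 10 to 100 UMIs, taken as free RNA, Col27a1 stood at 19.1 CPM, or 39.2 CPM (21.4 to 65.8) once barcodes that hold a cell in the glioma library were left out. The level in microglia, 159.5 CPM, lay above the level in free RNA, and the thinned share lay above that of the lymphocytes of the same library.

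Other members in control microglia were lower. Col15a1, a basement membrane collagen gene, held 1799 UMIs, 20.1 CPM (19.14 to 21.01), in 1583 cells. Col6a3, a chain of the beaded filaments, held 460 UMIs, 5.13 CPM (4.67 to 5.62), in 402 cells, while its partner chains Col6a1 and Col6a2 stood at 0.07 and 0.03 CPM. In control free RNA, Col15a1 stood at 6.83 CPM and Col6a3 at 2.73 CPM. Without barcodes that hold a cell in the glioma library, Col15a1 stood at 13.999 CPM (4.55 to 32.67, 5 UMIs). Col6a3 then stood at 5.599 CPM (0.678 to 20.23, 2 UMIs). Both of these intervals include the level in microglia. The part of free RNA in the microglial levels of Col15a1 and Col6a3 was not tested. Col25a1, a transmembrane collagen gene, held 118 UMIs, Col11a2 100, Col9a2 67 and Col9a3 61, all at or below 1.32 CPM. Col4a1 and Col4a2, the main genes of the endothelium, held only 30 and 31 UMIs over the same 12546 cells.

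Within control microglia, groups chosen after the data were seen differed in level, and Col27a1 stayed the leading member in each. In 2470 cells without a UMI of Il1a, Tnf or Gpr84, genes of inflammatory activation, Col27a1 stood at 186.5 CPM (178.8 to 194.5). In 6143 cells with at least 3 such UMIs it stood at 150.5 CPM (147.2 to 153.8). The interferon-induced genes Ifit2, Ifit3 and Rsad2 marked 147 cells with 129.7 CPM. The 3137 cells lowest and the 3137 cells highest in the immediate early genes Fos, Egr1, Jun and Atf3 had 172.4 CPM (166.4 to 178.5) and 166.6 CPM (161.4 to 172.1), intervals that overlap. The lowest level was that of 33 cells with at least 3 UMIs of the proliferation genes Top2a and Mki67, 52.6 CPM (35.5 to 75.1, 30 UMIs).

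Depth moved with these levels. Microglia with 1000 to 3000 UMIs held 267 CPM of Col27a1, those with 3000 to 6000 held 195 CPM, those with 6000 to 9000 held 153 CPM, those with 9000 to 15000 held 142 CPM, and those above held 141 CPM. The cells without Il1a, Tnf or Gpr84 had a median of 4396 UMIs and the cells with at least 3 had 7837, so the gap between them runs the same way as the depth. The part of depth in it was not tested.

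**Figure D2:**
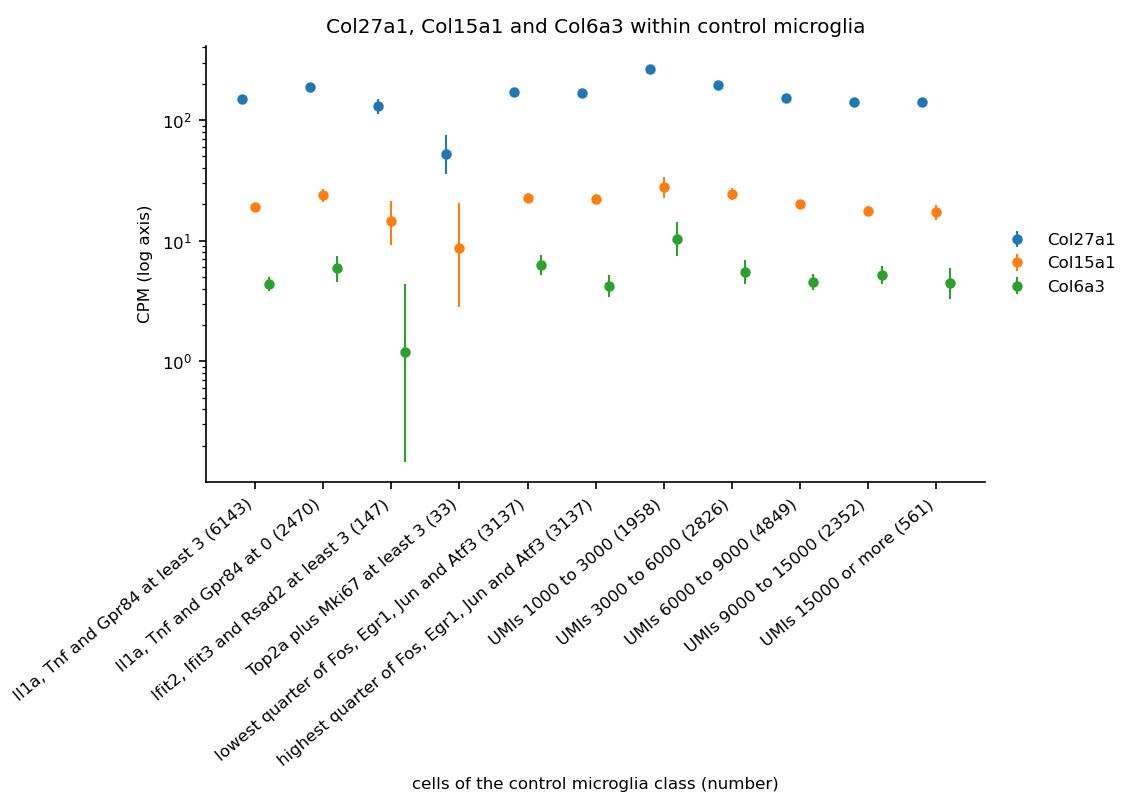
CPM (log axis) of Col27a1, Col15a1 and Col6a3 in groups of control microglia (number of cells in brackets), with exact 95% Poisson intervals and no point where a gene had 0 UMIs. Col27a1 lies above Col15a1 and Col15a1 above Col6a3 in each group, and Col27a1 is lowest in the 33 cells with Top2a and Mki67 UMIs (52.6 CPM).

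Macrophages of both tissues held little Col27a1. The 61 border-associated macrophages of the same control library held 1 Col27a1 UMI, 1.94 CPM (0.05 to 10.8), and 3 of Col15a1. Their summed collagen level was below that of microglia by 4.17 on the log2 scale (log2 ratio -4.17, -5.93 to -3.09), a ratio over all 44 genes that rests on 5 UMIs. With 10 of the 13 genes that had 20 UMIs over both sums at 0 in border-associated macrophages, no count of single genes is given for them. The 33 glioma barcodes gated as microglia held 3 Col27a1 UMIs, 7.02 CPM against 159.5 CPM in control microglia (log2 ratio -4.28, -6.78 to -2.96), and 0 of Col15a1, which allows up to 7.02 CPM. These barcodes held 1615 CPM of microglial markers against 10629 CPM in control microglia, and 269 CPM of macrophage markers against 19.5 CPM, and the part of this in the Col27a1 difference was not tested. These glioma microglia were compared after the data were seen, and group and library cannot be told apart in them.

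The comparison of glioma macrophages with control microglia set the main myeloid class of each tissue side by side; here group, library and class cannot be told apart. A gene was compared where it had at least 20 UMIs over both sums, and called where its CPM differed at least 2-fold. In each comparison, a gene with few UMIs in 1 class entered through the other, so the filter in part set the direction of its call. Of 22 members compared, 11 were called higher in glioma macrophages and 9 lower. Over all 14754 genes compared, 16.3% were called higher and 32.9% lower. The members' median log2 ratio was 0.90 beside -0.38 over all genes. Sums over all members went the other way, 15.8 CPM in glioma macrophages against 192 CPM in microglia (log2 ratio -3.60, -3.68 to -3.52).

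The lower members included Col27a1, Col15a1 and Col6a3, the members with the most UMIs in microglia. Col27a1 had 17 UMIs over 6539 glioma macrophages, 0.18 CPM, a log2 ratio of -9.73 (-10.55 to -9.09). Col25a1 had 1 UMI (log2 ratio -6.35, -12.25 to -4.43). Col6a3 stood at 0.22 against 5.13 CPM (-4.54, -5.30 to -3.93) and Col15a1 at 1.67 against 20.1 CPM (-3.58, -3.83 to -3.35). Col9a2 had 0 UMIs against 67 and was at least 23.1-fold lower. Col23a1, Col4a4, Col1a2 and Col9a3 were lower with log2 ratios from -2.86 to -1.78.

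The higher members began with Col3a1 (154 UMIs against 1, log2 ratio 6.64, 4.72 to 12.5), Col1a1 (75 against 5, 3.73) and Col4a1 (379 against 30, 3.59). Col18a1, Col6a1, Col5a1, Col16a1, Col4a2, Col5a3, Col7a1 and Col11a2 followed with log2 ratios from 2.66 down to 1.05, the interval of Col5a3 reaching below 0 (-0.01 to 2.81). Col14a1 (0.76) and Col20a1 (0.07) were within 2-fold. In level all of these were low: the highest, Col4a1, stood at 4.08 CPM. Each of the 11 members called higher stood below its own level in glioma free RNA (barcodes with 10 to 100 UMIs), for instance Col4a1 at 4.08 against 8.07 CPM, Col3a1 at 1.66 against 6.21 CPM, Col1a1 at 0.81 against 6.83 CPM, Col18a1 at 0.31 against 9.93 CPM and Col11a2 at 2.32 against 3.72 CPM. The free RNA levels of Col5a1, Col5a3 and Col16a1 rest on 1 UMI each, and those of Col4a2 and Col6a1 on 2 each. Free RNA was then subtracted as a fixed share of each class's UMIs, assumed rather than estimated, with negative sums set to 0. Col18a1 then had 0 UMIs in both sums and so no ratio. Col4a1, Col5a1 and Col5a3 had 0 UMIs left in control microglia. Only the lower ends of their intervals are given, 6.31, 2.43 and 1.46. Col7a1 changed sign (-0.19) and Col11a2 rose to 1.77. The other members called higher stayed inside their counting intervals. The part of free RNA in these values was not tested, and they are not read as expression by macrophages.

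Many of these UMIs sat in few macrophages. Of the 6539 glioma macrophages, 236 carried at least 1 UMI of the keratin and Rhox5 markers, a split made after the data were seen. Their median depth was 15958 UMIs against 12481 in the rest. Those 236 cells held 130 of the 154 Col3a1 UMIs, 51 of 75 of Col1a1, 28 of 33 of Col6a1, 21 of 29 of Col18a1, 18 of 20 of Col6a3 and 15 of 18 of Col5a3. They held a smaller part of the others: 68 of 379 UMIs of Col4a1, 7 of 215 of Col11a2, 8 of 155 of Col15a1 and 5 of 88 of Col14a1. Without them, 5 rather than 11 members were called higher than in control microglia, 9 still lower, and the median log2 ratio was -0.95. The share of all genes called was not computed for this split, so these counts are not read as a result about the members. Col3a1 then had 24 UMIs (log2 ratio 4.04), and Col5a3 and Col6a1 turned to -1.08 and -0.23. In the other 6303 macrophages the most counted members were Col4a1 (311 UMIs, 3.50 CPM), Col11a2 (208, 2.34 CPM), Col15a1 (147, 1.66 CPM) and Col14a1 (83, 0.93 CPM).

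**Figure D3:**
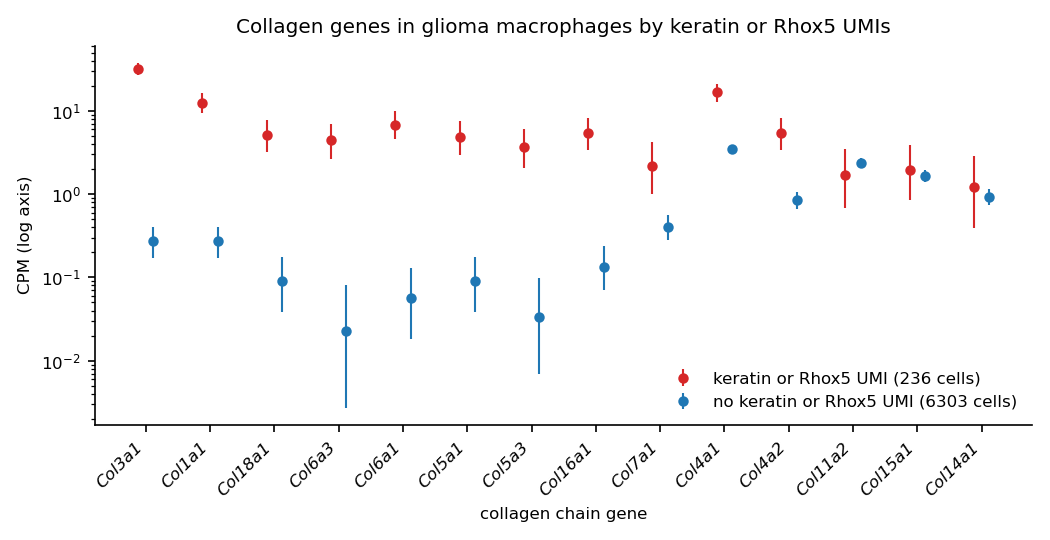
CPM (log axis) of 14 collagen genes in glioma macrophages with a keratin or Rhox5 UMI (236 cells, red) and without one (6303 cells, blue), with exact 95% Poisson intervals. Col3a1 stands at 31.8 against 0.27 CPM, while the intervals of Col11a2, Col15a1 and Col14a1 overlap between the groups.

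Among glioma macrophages with at least 3 UMIs of a state marker, which are overlapping sets, the summed collagen level ranged from 13.2 CPM in cells with Top2a and Mki67 to 22.2 CPM in cells with Inhba and 23.001 CPM in cells with Mmp13, which encodes a collagenase. Col14a1, a collagen gene of fibril surfaces, stood at 1.59 CPM in cells with Arg1 and 1.58 CPM in cells with Mmp13, against 0.24 CPM (5 UMIs) in cells with the monocyte gene Chil3. Col11a2 was highest in cells with Mmp13 (3.57 CPM), and Col3a1 in cells with Inhba (4.07 CPM). As given above, most Col3a1 UMIs of the class sat in cells with a keratin or Rhox5 UMI. The part of those cells in the levels of these sets was not tested. Chil3 and Cxcl9 cells had 15.7 and 15.6 CPM in all. These are levels of 5 to 909 UMIs and no more than a description.

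Control endothelium was led by the type IV genes. Col4a1 lies on chromosome 8 from 11198423 to 11312826, minus strand, and Col4a2 from 11312805 to 11449287, plus strand, head to head with overlapping starts. Their promoter windows, chr8:11312777-11313076 (minus strand) and chr8:11312555-11312854 (plus strand), share 78 bases and are shown because this pair led the class.
Col4a1: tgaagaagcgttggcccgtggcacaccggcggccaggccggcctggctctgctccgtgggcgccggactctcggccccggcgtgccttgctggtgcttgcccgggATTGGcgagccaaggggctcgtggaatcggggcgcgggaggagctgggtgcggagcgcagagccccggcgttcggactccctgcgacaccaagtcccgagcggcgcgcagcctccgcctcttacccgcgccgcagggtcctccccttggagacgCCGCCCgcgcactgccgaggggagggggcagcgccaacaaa
Col4a2: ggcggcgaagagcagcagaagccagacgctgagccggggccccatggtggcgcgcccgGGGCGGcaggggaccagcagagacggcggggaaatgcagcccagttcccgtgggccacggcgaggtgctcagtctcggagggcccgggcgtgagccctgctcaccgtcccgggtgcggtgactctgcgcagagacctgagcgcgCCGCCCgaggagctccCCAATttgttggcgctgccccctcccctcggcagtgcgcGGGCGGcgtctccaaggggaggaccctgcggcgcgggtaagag
Each window held 1 CCAAT on either strand (37.4% of all windows hold one); Col4a1 held 1 GC box and Col4a2 held 3, and neither held TATAAA, found in 13.6% of windows. Their 37 and 33 CpG dinucleotides exceeded those of 94.4% and 91.4% of windows. Whether the counting used strand is not given in the sources used here, so reads in the overlap of the pair cannot be assigned with certainty.

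Col4a1 held 585 UMIs in 102 of 120 endothelial cells, 451.4 CPM (415.6 to 489.5), against 0.33 CPM in control microglia (log2 ratio 10.38, 9.87 to 10.98). Col4a2 held 382 UMIs in 106 cells, 294.8 CPM (265.9 to 325.9), against 0.35 CPM (9.71, 9.21 to 10.31). Together with Col4a4 (3 UMIs) and Col4a5, type IV genes made up 83.5% of the collagen UMIs of the class. Thinned to 2000 UMIs, 53.8% of 117 endothelial cells held a Col4a1 UMI (44.4 to 63.1%; 85.0% before thinning), against 0.070% of microglia (0.030 to 0.138%; 0.215% before thinning), which give the background.

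Of 15 members compared between endothelium and microglia, 9 were called higher in endothelium and 3 lower. Over all 14006 genes compared, 29.2% were called higher and 16.3% lower, and the medians were 1.93 for the members and 0.38 for all genes. The higher intervals lay above 0 for 7 of the 9: Col4a1, Col4a2, Col6a6 (log2 ratio 10.08), Col18a1 (9.45), Col1a2 (5.83), Col14a1 (5.13) and Col4a4 (3.56). Col23a1 and Col9a3 were called on 2 UMIs each. The lower members were Col27a1 (15 UMIs, 11.6 CPM, log2 ratio -3.74, -4.62 to -3.06), Col15a1 (7 UMIs, -1.79, -3.21 to -0.85) and Col6a3 (0 UMIs, at least 2.22-fold lower).

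Part of the endothelial profile moved with markers of mural cells, the pericytes and smooth muscle cells that wrap vessels. Of the 120 cells, 50 held a UMI of the pericyte and smooth muscle markers, all 9 of which were seen in the class (512 CPM summed); this split was made after the data were seen. These 50 cells held 23 of 23 Col6a6 UMIs, 21 of 23 of Col1a2, 9 of 9 of Col3a1 and 9 of 12 of Col1a1, but 347 of 585 of Col4a1 and 218 of 382 of Col4a2. Without them the log2 ratio of Col1a2 to microglia was 3.95 (0.54 to 5.64) in place of 5.83, and Col6a6 had 0 UMIs (up to 7.24 CPM). The shares of UMIs are not set against depth, and a deeper cell more readily holds a marker UMI. In CPM, Col1a2 stood at 3.93 in the cells without such UMIs against 17.7 in the class. All 8 fibroblast markers were seen in the class as well, at 74.1 CPM against 1.07 CPM in microglia. The class also held 857 CPM of the macrophage panel, which includes Fn1, 742 CPM of oligodendrocyte markers, 456 CPM of microglial markers and 22.4 CPM of Ptprc. Their part in the collagen levels was not tested.

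In the 13 control pericytes, too few for a level, Col4a1 had 103 UMIs, Col4a2 67, Col18a1 29, Col1a2 26 and Col5a2 14. The 5 ependymal or choroid cells held 36 UMIs of Col6a5, all in 1 cell, and 26 of Col8a2, in all 5. These 2 genes passed the 20 UMI threshold through those 5 cells alone.

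The glioma keratin and Rhox5 cells expressed several collagen families. They are called by their gate: Krt8 and Krt18, keratin genes of simple epithelia, stood at 757 and 619 CPM, Rhox5, a homeobox gene, at 1036 CPM, and Krt7 at 0 UMIs. Ptprc stood at 6.35 CPM (20 UMIs in 10 of 67 cells), against 356 CPM in glioma macrophages, although the labels describe the sort as CD45+. Their median depth was 44427 UMIs. All 12 macrophage markers were seen in the class, at 309 CPM summed against 4205 CPM in macrophages. Pericyte markers stood at 47.9 CPM with Kcnj8, Abcc9, Vtn, Myh11 and Higd1b at 0. Fibroblast markers stood at 28.2 CPM (89 UMIs, 1.31 CPM in macrophages) with Lum, Slc6a13, Islr, Mfap5 and Clec3b at 0, and endothelial markers at 53.6 CPM with Cldn5, Ptprb, Slco1a4 and Emcn at 0. The part of these in the collagen levels was not tested.

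Every one of the 67 cells held a collagen UMI. Their summed collagen level was 302 CPM in the lowest, 841 CPM in the median and 2433 CPM in the highest cell, and the median cell held UMIs of 9 members. The 57 cells without Ptprc UMIs held 2053 collagen UMIs and the 10 cells with them 469, and Col3a1 led both sets (674 and 154 UMIs).

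By family, fibrillar genes made up 49.4% of the collagen UMIs of these cells, type IV genes 21.3%, type VI genes 9.91% and types XV and XVIII together 9.12%. Col3a1 held 828 UMIs, 262.8 CPM (245.2 to 281.3), in 66 of 67 cells. Col4a1 had 115.2 CPM (103.7 to 127.7), Col18a1 72.7 CPM (63.6 to 82.7), Col5a3 48.2 CPM, Col16a1 47.0 CPM, Col1a1 46.3 CPM, Col4a2 45.1 CPM and Col6a1 43.2 CPM. Col5a1, Col7a1 (the anchoring fibril gene of epithelia), Col6a3, Col4a5 and Col6a2 followed between 35.2 and 7.30 CPM. Col1a1 was uneven: its 146 UMIs sat in 23 cells, up to 27 in 1 cell. The 148 UMIs of Col16a1 were spread over 58 cells. The class did not hold all such UMIs of its library. Of 1742 Col3a1 UMIs in passing glioma barcodes, 619 sat in ambiguous barcodes and 140 in barcodes that passed no gate. Ambiguous glioma barcodes also held 193 Col1a1 UMIs.

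Col1a2, whose chain joins Col1a1 products in the common form of type I collagen, had 0 UMIs in the 67 cells, at least 18.6-fold below its 17.7 CPM in control endothelium. In endothelial cells without pericyte marker UMIs Col1a2 stood at 3.93 CPM (2 UMIs), which is too few for such a bound. By a limit of 3 counts, 0 of 67 cells allows up to 4.48% of cells with a Col1a2 UMI, which does not bound the share of cells that express the gene. Free RNA of the glioma library held 12 UMIs of Col1a2, 7.45 CPM, so the gene was captured in this library. Col5a2, a type V chain gene, had 2 UMIs. The promoter windows of Col3a1 (chr1:45311288-45311587, plus strand) and Col1a2 (chr6:4505368-4505667, plus strand) are shown as those of the most counted member of the class and of the one at 0.
Col3a1: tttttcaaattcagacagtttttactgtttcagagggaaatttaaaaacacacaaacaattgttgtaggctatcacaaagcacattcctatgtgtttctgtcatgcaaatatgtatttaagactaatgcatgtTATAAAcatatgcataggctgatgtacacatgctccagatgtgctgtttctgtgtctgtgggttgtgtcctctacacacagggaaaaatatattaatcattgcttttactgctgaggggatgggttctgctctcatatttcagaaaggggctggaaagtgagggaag
Col1a2: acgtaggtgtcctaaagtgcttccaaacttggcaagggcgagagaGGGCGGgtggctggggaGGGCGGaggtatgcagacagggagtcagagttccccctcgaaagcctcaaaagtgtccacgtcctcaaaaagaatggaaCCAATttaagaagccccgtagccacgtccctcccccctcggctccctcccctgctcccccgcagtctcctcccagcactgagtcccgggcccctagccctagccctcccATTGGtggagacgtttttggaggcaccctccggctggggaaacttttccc
Col3a1 held 1 TATAAA, no CCAAT, no GC box and 0 CpG dinucleotides, and Col1a2 held 2 CCAAT, 2 GC boxes and 13 CpG dinucleotides. A match or its absence describes these letters only.

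Against glioma macrophages, 14 of 17 members compared were called higher in the keratin and Rhox5 cells and 3 lower, beside 22.9% and 26% of all 13040 genes compared. Their median log2 ratio was 6.85, beside -0.01 over all genes. The keratin and Rhox5 cells held at least 23 UMIs of each higher member except Col9a3, which had 2 (log2 ratio 1.99, -1.44 to 3.77). Among the higher ratios were those of Col5a3 (48.2 against 0.19 CPM, log2 ratio 7.92, 7.25 to 8.75), Col18a1 (7.84, 7.30 to 8.47), Col4a5 (7.78, 6.43 to 9.88), Col3a1 (7.30, 7.06 to 7.57) and Col6a2 (7.27, 5.86 to 9.40). Their intervals overlap, and their order changed with the processing. Against macrophages without keratin or Rhox5 UMIs the ratios were higher: 10.26 for Col5a3, 9.90 for Col3a1 and 9.57 for Col18a1. The median over the members was 7.98. Col4a5 had 0 UMIs in those macrophages, so only the lower end of its interval is given, 7.90. With the assumed share of free RNA subtracted, Col18a1 had 0 UMIs left in macrophages, and its interval ran from 10.8 upward. Without the deepest 5% of cells the log2 ratio of Col18a1 was 9.95. Col4a1 was the closest of the well counted members (115.2 against 4.08 CPM, 4.82, 4.61 to 5.03). Of the lower members, Col11a2 had 0 UMIs against 215 and was at least 2.43-fold lower, and Col15a1 and Col14a1, with 1 UMI each, had intervals that reach above 0.

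**Figure D4:**
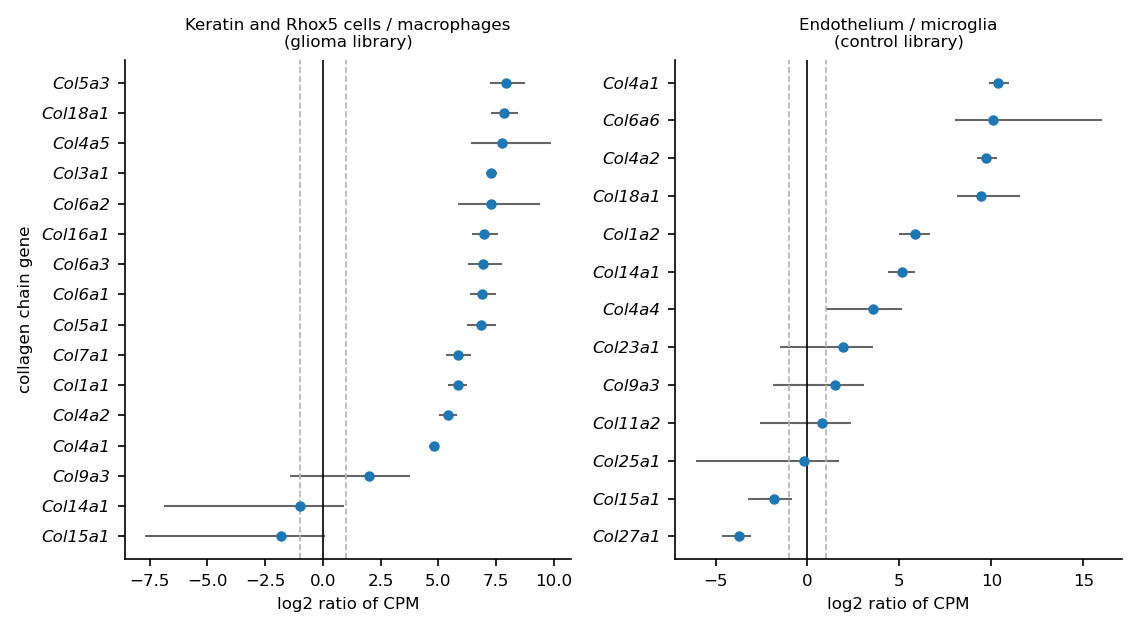
Log2 ratio of CPM with exact 95% intervals for the collagen genes compared, keratin and Rhox5 cells over macrophages in glioma (left) and endothelium over microglia in control (right), without members at 0 UMIs in a sum. Dashed lines mark 2-fold. The left panel reaches 7.92 (Col5a3) and the right panel 10.38 (Col4a1), and Col27a1 is lowest on the right (-3.74).

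Thinned to 2000 UMIs, 41.8% of the 67 cells held a Col3a1 UMI (29.8 to 54.5%; 98.5% before thinning), against 0 of 981 glioma T or NK cells, which by a limit of 3 counts allows up to 0.306% of thinned cells with a UMI. The T or NK cells had a median of 7443 UMIs. For Col4a1 the thinned share was 28.4% (18.01 to 40.69%; 95.5% before thinning).

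Set beside control endothelium, a further collagen-rich class with little Ptprc and more than 50 cells, the keratin and Rhox5 cells had a like summed level and another composition. The summed log2 ratio was -0.17 (-0.27 to -0.06), 800 against 897 CPM, and took the other sign on scales that centre all genes or weigh cells equally (0.45 and 0.0045). Of 16 members compared, 11 were called higher in the glioma cells and 5 lower, beside 16.3% and 39.3% of 9940 genes. Of the higher members only Col18a1 had at least 20 UMIs in endothelium (45). Of the lower members only Col4a1 and Col4a2 had as many in the glioma cells (363 and 142). The others entered only through the class where they are high, so the filter in part set the direction of their calls. The medians were 2.94 for the members and -0.62 for all genes. Libraries, groups and cell classes cannot be told apart here.

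Several fibrillar and type VI genes were higher in the glioma cells: Col3a1 (262.8 against 6.94 CPM, log2 ratio 5.16, 4.31 to 6.38), Col1a1 (46.3 against 9.26 CPM, 2.27, 1.47 to 3.31), Col5a3 (5.39), Col6a1 (5.23), Col5a1 (0 UMIs in endothelium, at least 15.2-fold) and Col6a3 (0 UMIs in endothelium, at least 11.8-fold). Col16a1, Col7a1, Col4a5, Col6a2 and Col18a1 were higher with log2 ratios from 4.61 to 1.05. Col4a1 (log2 ratio -1.97, -2.16 to -1.78), Col4a2 (-2.71, -3.00 to -2.43), Col14a1 (-5.37), Col1a2 and Col6a6 were lower, the last pair at 0 UMIs in the glioma cells and at least 18.6-fold lower. Against endothelial cells without pericyte marker UMIs, 2 members rather than 5 were called lower, Col4a1 and Col4a2, since Col14a1, Col1a2 and Col6a6 then had too few UMIs to compare, Col1a2 standing at 3.93 CPM and Col6a6 at 0 UMIs. Col3a1 had 0 UMIs in those endothelial cells, and the interval of its log2 ratio ran from 5.18 upward.

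Type IV chains were counted together in single cells. Of 67 keratin and Rhox5 cells, 55 held both Col4a1 and Col4a2, 9 only Col4a1, 2 only Col4a2 and 1 neither. Of 120 endothelial cells, 94 held both, 8 only the first, 12 only the second and 6 neither. In 6539 glioma macrophages 10 held both, 294 only Col4a1 and 70 only Col4a2. The ratio of Col4a1 to Col4a2 UMIs was 1.53 in endothelium, 1.54 in pericytes, 2.56 in keratin and Rhox5 cells and 3.91 in glioma macrophages. Of the type VI pair, 16 keratin and Rhox5 cells held Col6a1 and Col6a2, 35 only Col6a1 and 1 only Col6a2. These shares were not thinned and depend on depth.

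**Figure D5:**
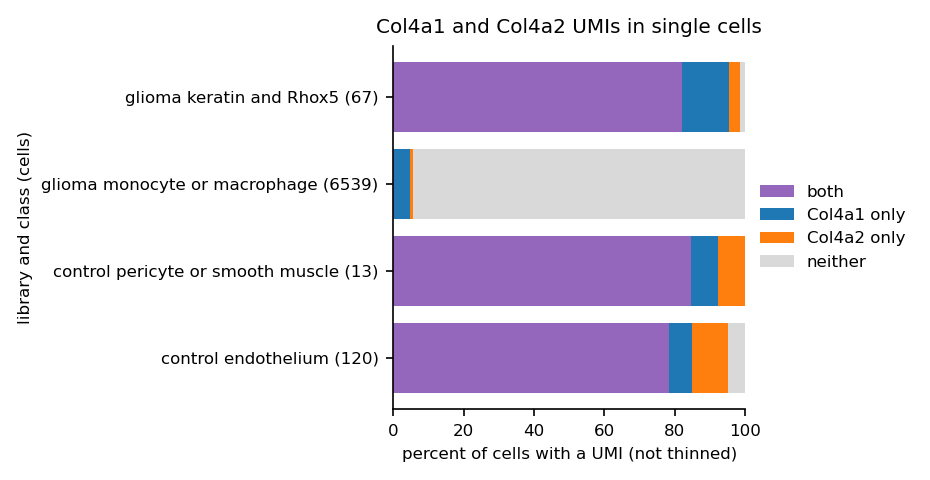
Percent of cells with UMIs of both Col4a1 and Col4a2, of 1 of them or of neither, in 4 classes (number of cells in brackets), without thinning. Both genes were counted in 55 of 67 keratin and Rhox5 cells and 94 of 120 endothelial cells, but in 10 of 6539 glioma macrophages.

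Genes that act on collagen were read from 6 lists, whose counts are to be read against the shares of all genes called in the same comparison. Between keratin and Rhox5 cells and macrophages, these shares were 22.9% higher and 26% lower. Of the enzymes and chaperones that modify and fold chains inside the cell, 10 of 18 compared were called higher in keratin and Rhox5 cells than in macrophages and 1 lower (median log2 ratio 1.91). Serpinh1, the collagen chaperone, stood at 629 CPM against 1.77 CPM (8.47, 8.25 to 8.72), and Fkbp10, P3h4 and P4ha3, which act on the folding or hydroxylation of chains, had log2 ratios of 8.19, 7.77 and 7.45. All 6 compared genes of propeptide removal and crosslinking were called higher (median 6.38), with Pcolce2 (8.20), Pcolce (7.84), Bmp1 (6.98) and the lysyl oxidase family gene Loxl2 (5.79). Of basement membrane partners 8 of 10 were higher and 2 lower (median 6.41), led by Lamb1 (8.10), Nid1 (8.06), Hspg2 (7.44) and Sparc (7.29). Of fibrillar matrix partners 3 of 5 were higher and 1 lower (median 1.82): Tnc stood at 7.45, Bgn at 4.0, Fbn1 at 1.82 and Thbs1 at -3.79.

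Receptors divided between the cells. Lair1, an inhibitory collagen receptor of leukocytes, had 0 UMIs in keratin and Rhox5 cells, at least 146-fold below the 139 CPM of macrophages, and Mrc1 was lower as well (log2 ratio -6.38). The collagen receptor Ddr2 (7.05) and the uptake receptor Mrc2 (6.83) were higher. In all 5 of 10 receptor genes were called higher and 3 lower (median 2.50). Of collagen-degrading enzymes 3 of 10 were higher and 4 lower (median -0.57). Mmp8 stood at -5.78, Mmp13 at -2.77, Mmp9 at 1.87 and Fap at 1.76. The 3 of 10 lower receptors and 3 of 10 higher degrading enzymes lie near the 26% and 22.9% of all genes.

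Between the myeloid classes of the 2 tissues, degradation genes were called higher in glioma macrophages for 7 of 10 and lower for 2 (median 1.74), led by the collagenase genes Mmp13 (217.5 against 0.39 CPM, log2 ratio 9.10) and Mmp8 (6.52), with Mmp9 (4.36) and Mmp14 (3.36). Chain modification genes were lower for 7 of 18 and higher for 3, near the 32.9% and 16.3% over all genes (median -0.25, all genes -0.38). They included Fkbp14 (0 UMIs, at least 142-fold lower), P3h2 (-8.36), P3h4 (-4.28) and P3h3 (-2.21). Sparc, a collagen-binding glycoprotein gene, stood at 4092 CPM in control microglia and 3.92 CPM in glioma macrophages (-10.03), and among basement membrane partners 5 of 10 were higher and 3 lower (median 1.43), with Lamb2 (-4.49), Nid2 (-4.03) and Nid1 (2.87). Of the receptors 5 of 10 were higher and 3 lower (median 0.59), with Mrc2 (-6.57), Itga1 (4.32), Mrc1 (3.23) and Gp6 (2.50). The 3 of 10 lower among receptors and among basement membrane partners lie near the 32.9% over all genes. Of propeptide and crosslinking genes 2 of 7 were higher and 3 lower (median -0.33), with Lox (-5.26), Bmp1 (-3.18), Pcolce (2.26) and Loxl2 (2.16). Fibrillar matrix partners were divided, 3 of 7 each way (median -0.70), with Thbs1 (7.23) and Fn1 (7.14) above and Sparcl1 (-7.22) and Postn (-6.55) below; Fn1 is also a marker of the macrophage gate, Mmp9 of the neutrophil gate and Dcn of the fibroblast gate.

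In endothelium against microglia, basement membrane partners were called higher for 8 of 10 and lower for 0 (median 5.39, all genes 0.38), led by Hspg2 (9.86), Lama4 and Lama5 (8.46 each) and Nid1 (7.95). Over all genes compared here, 29.2% were called higher and 16.3% lower. Fibrillar matrix partners were higher for 5 of 7 and lower for 2 (median 6.65), with Eln (10.31), Fn1 (8.95), Sparcl1 (7.29) and Dcn (6.65). Of chain modification genes 8 of 19 were higher and 4 lower (median 0.41), with Serpinh1 (8.92), Colgalt2 (7.62), Plod2 (6.99) and P4ha2 (4.70). Of the receptors 5 of 7 were higher and 2 lower (median 1.07): the collagen-binding integrin gene Itga1 stood at 366.5 against 0.65 CPM (9.14), Itga10 at 2.90, Mrc2 at -2.52 and Lair1 at -4.71. Degradation genes were higher for 0 of 9 and lower for 4 (median -0.04), with Mmp2 (0 UMIs, at least 5.76-fold lower), Mmp14 (-4.14), Ctsb (-2.40) and Pepd (-1.46). Of propeptide and crosslinking genes 2 of 5 were higher and 1 lower (median 0.68): Pcolce (5.09), Loxl2 (2.50), Lox (0 UMIs) and Loxl3 (-2.65).

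Against control endothelium, the keratin and Rhox5 cells had higher crosslinking and propeptide genes (6 of 6, median 4.76) and degradation genes (4 of 7, 0 lower, median 4.14), among them Loxl2 (5.45), Pcolce (5.01) and Mmp14 (6.16). Pcolce2, Adamts14, Mmp13, Mmp9 and Mmp2 had 0 UMIs in endothelium and were at least 12.9-, 3.70-, 13.7-, 10.97- and 2.88-fold higher. Basement membrane partners were called lower for 5 of 10 and higher for 2, near the 39.3% and 16.3% over all genes (median -1.18, all genes -0.62), with Nid2 (0 UMIs, at least 25.1-fold lower), Lama4 (-5.22), Lamb2 (-4.28) and Lamb1 (4.15). Fibrillar matrix partners were lower for 5 of 7 and higher for 2 (median -2.82): Sparcl1 and Eln had 0 UMIs (at least 926- and 66.5-fold lower), Thbs1 had 5.03, and Tnc was at least 6.86-fold higher. Receptors were lower for 4 of 7 and higher for 3 (median -4.17). Itgb1, the integrin chain shared by the collagen-binding integrins, had 15 UMIs, 4.76 CPM against 383.5 CPM (-6.29, -7.18 to -5.60), Itga1 had -4.58, Ddr1 4.83, and Lair1 0 UMIs. Chain modification genes were higher for 6 of 18 and lower for 2 (median 0.72), with Fkbp10 (4.89), P3h3 (2.70), Serpinh1 (1.36) and P4ha3 (at least 5.21-fold).

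Free RNA of the glioma library held 42 UMIs of Col27a1 (26.1 CPM), and all 42 were in barcodes that hold a cell in the control library: without those 11406 barcodes it had 0 (up to 2.23 CPM by a floor of 3 UMIs), and the microglial gene P2ry12 went from 487 to 20 UMIs. Col18a1, Col4a1, Col1a2 and Col3a1 had 16, 13, 12 and 10 UMIs in glioma free RNA, and 16, 11, 11 and 10 without those barcodes. This reading was added after the data were seen.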

How the data were processed

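The authors deposited raw UMI counts, without normalization, as 1 matrix per group over 31053 genes and 6794880 barcodes, empty barcodes included. The libraries were made with a droplet 3' kit, per the labels' protocols. Per the submitters' processing notes, Cell Ranger 3.0.2, STAR, Seurat 3 and the builds mm10 and GRCh38 were used, in roles not given. UMI totals were 124023146 (control) and 159689787 (glioma).

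A barcode joined a class with at least 5 UMIs over at least 3 of the class's markers and at least 2 times the UMIs of the next class. UMIs were summed per class and given as CPM. Ratios are log2 of CPM ratios with 0.5 UMIs added to each sum, with conditional binomial intervals; levels have Poisson and shares Clopper-Pearson intervals, all at 95%, for counting error only; a share or level at 0 was limited by 3 counts of the total. A gene at 0 UMIs was set to a floor of 3 UMIs of the sum for its bound. No p-value was computed, since each group is 1 pooled library whose replicate samples cannot be told apart. Doublets were limited by leaving out ambiguous barcodes and, as an alternative, the deepest 5% of each class; no caller was run. Thinning was seeded, and the ratio code was tested on simulated data.

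The members, marker gates and gene lists were chosen with earlier results of these data known. Every member with 20 UMIs in a class is named, and of each list the 4 genes per comparison with the largest absolute log2 ratio; Mmp1a of the lists was not analysed here, and the border-associated comparison is given only as sums. Coordinates are from GENCODE on GRCm38, promoter windows from RefSeq GRCm38.p6, which held one for 35 of the 44 members. Python 3.11.15, NumPy 2.4.6, SciPy 1.17.1, pandas 2.3.3 and Matplotlib 3.10.9 were used.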

Additional observations from a re-analysis of the deposited data

How the results depend on the processing

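Counts of members were computed again under 13 alternatives and 2 added after the data were seen; the filters on genes give no new value for a single member and centring none for a level, so single ratios had 13 alternatives and levels 12. Of 793 recomputed ratios of single members, 715 stayed inside their counting interval, 72 moved beyond it and 6 changed sign; of 312 levels, 278 stayed and 34 moved; of 120 counts, 106 stayed within 1.5 times. The share of all genes called was not computed under any alternative, so the counts below are not read as results about the members. The minimum of UMIs per gene moved the counts most. With at least 1 UMI per gene, 31 members were higher in endothelium than in microglia, 30 higher in keratin and Rhox5 cells than in macrophages, 18 lower in glioma macrophages than in control microglia (median -0.60) and 14 lower in keratin and Rhox5 cells than in endothelium, since genes at 0 in a small sum are then compared. With at least 100 UMIs per gene, fewer genes were compared: 2 were higher in endothelium than in microglia (median -0.19), 4 higher and 4 lower in glioma macrophages than in control microglia, and 7 higher and 2 lower in keratin and Rhox5 cells than in endothelium. With cells weighted equally, 7 members were higher in glioma macrophages than in control microglia. Members lower in keratin and Rhox5 cells than in endothelium were 2 at a 5% mitochondrial limit, 3 without the deepest 5% of cells and 2 in endothelium without pericyte marker UMIs. In macrophages without keratin or Rhox5 UMIs, 5 members were higher than in control microglia, with a median of -0.95. Summed members of keratin and Rhox5 cells against endothelium changed sign on the centred scale (0.45) and with equal weights (0.0045). Signs of low members also changed: Col14a1 in keratin and Rhox5 cells against macrophages at a 5% mitochondrial limit (0.092), and in glioma macrophages against control microglia Col18a1 and Col7a1 with free RNA subtracted (-0.044 and -0.19), Col5a3 without the deepest cells (-0.58), and Col5a3 and Col6a1 without keratin or Rhox5 UMIs (-1.08 and -0.23); the cause was not tested. With free RNA subtracted Col18a1 had 0 UMIs left in both sums, so its change of sign carries no information. The sums of border-associated macrophages stayed between -4.64 and -3.98.

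No paired analysis was possible because barcodes are not tied to any sample. Depth limits every member below 20 UMIs and the small classes.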
